A study of Mus musculus with 44 samples.

Results

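Genes of mitochondrial and peroxisomal fatty acid oxidation were followed in mouse ovarian follicles exposed to PFNA (perfluorononanoic acid, a perfluorinated fatty acid analog). The 43 genes were chosen by name, with earlier results of these data known, and matched by symbol. All 43 were found in both deposited tables, among 22674 genes of a maturation table and 18274 genes of an ovulation table. Follicles of wild-type CD-1 mice, an outbred strain, formed 4 groups. In the window of gonadotropin-dependent maturation, 11 control libraries had received DMSO and 10 libraries had received PFNA. In the window of ovulation, 12 control libraries had received hCG (human chorionic gonadotropin, which stands in for the ovulatory surge) and 11 libraries had received hCG together with PFNA, so that every library of that window carried hCG. The labels give neither the PFNA dose, the exposure time, the age of the mice nor the number of follicles or animals behind a library. P-values therefore measure the spread between these libraries, which may be partly technical.

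In this pathway a fatty acid is first joined to coenzyme A, passed into the mitochondrion as a carnitine ester, and then shortened stepwise by dehydrogenation, hydration, a further dehydrogenation and thiolysis, with electrons leaving through the electron transfer flavoprotein. Peroxisomes run a similar chain on very long, branched and unsaturated acids and hand shortened products to mitochondria. Many of these genes are textbook targets of PPAR receptors, for which fatty acids and their fluorinated analogs are ligands, and oxidation of fatty acids in cumulus cells and oocyte is known to accompany oocyte maturation.

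Whole follicles hold granulosa, theca and oocyte RNA together, and in such bulk samples fewer cells of a type and less RNA per cell cannot be told apart. Maturation values are TPM (transcript abundance scaled for length and library total), each library summing to 1000000, so the read depth is unknown. Ovulation values are CPM (counts scaled to the library total over the genes tested, adjusted by a TMM normalization factor for each library). Over all genes the libraries held 10600931 to 19511531 counts. The summed level of 9 oocyte markers was 108 to 166 TPM in maturation controls and 0.268 to 296 TPM with PFNA, with a median of 1.68 TPM, and all 8 markers tested were lower. In the ovulation window 4 of 8 oocyte markers were higher, and PFNA replicate 5 had the lowest sum of all (8.14 CPM, against 60.7 to 266 CPM in controls). Of 7 granulosa markers, 5 were lower and none higher in maturation, while 4 were higher and 2 lower in ovulation. Theca (4 of 5), endothelial (5 of 5) and smooth muscle (3 of 3) markers were higher with PFNA in ovulation. Of all genes tested in that window, 38.0% were called higher and 35.2% lower. The shares of all genes were 13.3% and 16.1% in maturation. Whether any marker list differed from these shares was not tested, so a count of markers alone does not show a shift in cell content. In maturation the theca marker Ptch1 (0.57 on the log2 scale, limma adjusted p = 0.0056) and the macrophage marker Cd68 (0.79, limma adjusted p = 0.043) were higher, as 1 of 4 theca and 1 of 2 immune markers tested, against 0 of 3 endothelial and 0 of 2 smooth muscle markers. Of the immune markers, Cd68 and Cd3e were higher in ovulation (2 of 6), the latter from at most 7 counts in any control to at least 2144 counts in each PFNA library, and the defining marker Ptprc was not called (0 to 4.25 CPM in controls, 0 to 6.02 CPM with PFNA). The sum of 4 adipocyte markers was at most 0.437 CPM in ovulation controls and 0.949 to 4.64 CPM with PFNA, without overlap, though all 4 were too low there to be tested. Adipoq (0 to 0.772 CPM with PFNA) and Plin1 (0.366 to 3.79 CPM) each had 10 of 11 PFNA libraries above every control, and Adipoq, Cidec and Lep stayed under 1 CPM in every library. In maturation Plin1, the one adipocyte marker in that table, was higher (1.53, limma adjusted p = 1.7e-05). What part these marker changes have in the results below was not tested. A fit with the oocyte marker sum is given in places. In maturation that sum was itself far lower in most PFNA libraries, so oocyte content and PFNA exposure cannot be told apart there. A call kept or lost in that fit does not show what part oocyte RNA has.

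In maturation controls, where levels per length can be compared, the members spanned from Ucp2 at 502 ± 37.9 TPM (SD, n = 11) to Cpt1b at 0.351 ± 0.506 TPM. Echs1 (175 ± 11.5 TPM), Acadvl (154 ± 12.3 TPM) and Ech1 (125 ± 10.2 TPM) followed Ucp2, and control ranges of neighbours in this order overlapped, except between Ucp2 and Echs1, Hadha and Etfb, and Acsl5 and Acad10. Acsl5, Acad10, Ehhadh and Acsl1 were the lowest members tested, with means from 4.76 down to 1.41 TPM. Cpt1b, with a mean under 1 TPM, was not tested in this window.

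With PFNA in the maturation window, 14 of 42 members were higher and 6 were lower (limma on log2(TPM + 1), Benjamini-Hochberg adjusted p under 0.05 over 13712 genes). Of all genes tested, 13.3% were called higher and 16.1% lower. The median log2 fold change of the members was 0.13, against 0.02 over all genes, and only Pdk4 changed 2-fold or more. With the oocyte marker sum as a covariate 7 members were called higher and 1 lower, while 723 of all genes were called in place of 4030. Without PFNA replicates 1 and 2, which an earlier analysis of these data placed near the controls, 18 members were higher and 6 lower. Over all genes that fit called 2600 higher and 2601 lower of 13725, against 1824 and 2206 of 13712 with every library. The 2 libraries were picked from these same data, so more calls without them are no separate evidence.

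In the ovulation window, 28 of 43 members were higher and 10 lower (edgeR's quasi-likelihood test, adjusted p under 0.05 over 13441 genes), where 38.0% of all genes were called higher and 35.2% lower. The median was 0.58, against 0.04 over all genes. Changes of 2-fold or more were found upwards for 17 members and downwards for Cpt1a and Acsl4. The shares of all genes with such a change, or with no overlap between groups, were not computed for either window. Counts of these kinds therefore describe the members alone. Without PFNA replicate 5 these counts were again 28 and 10. The balance of roles was uneven. All 3 electron transfer genes and 11 of 14 genes of the mitochondrial chain were higher, whereas all 4 genes of fatty acid activation were lower.

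**Figure D1:**
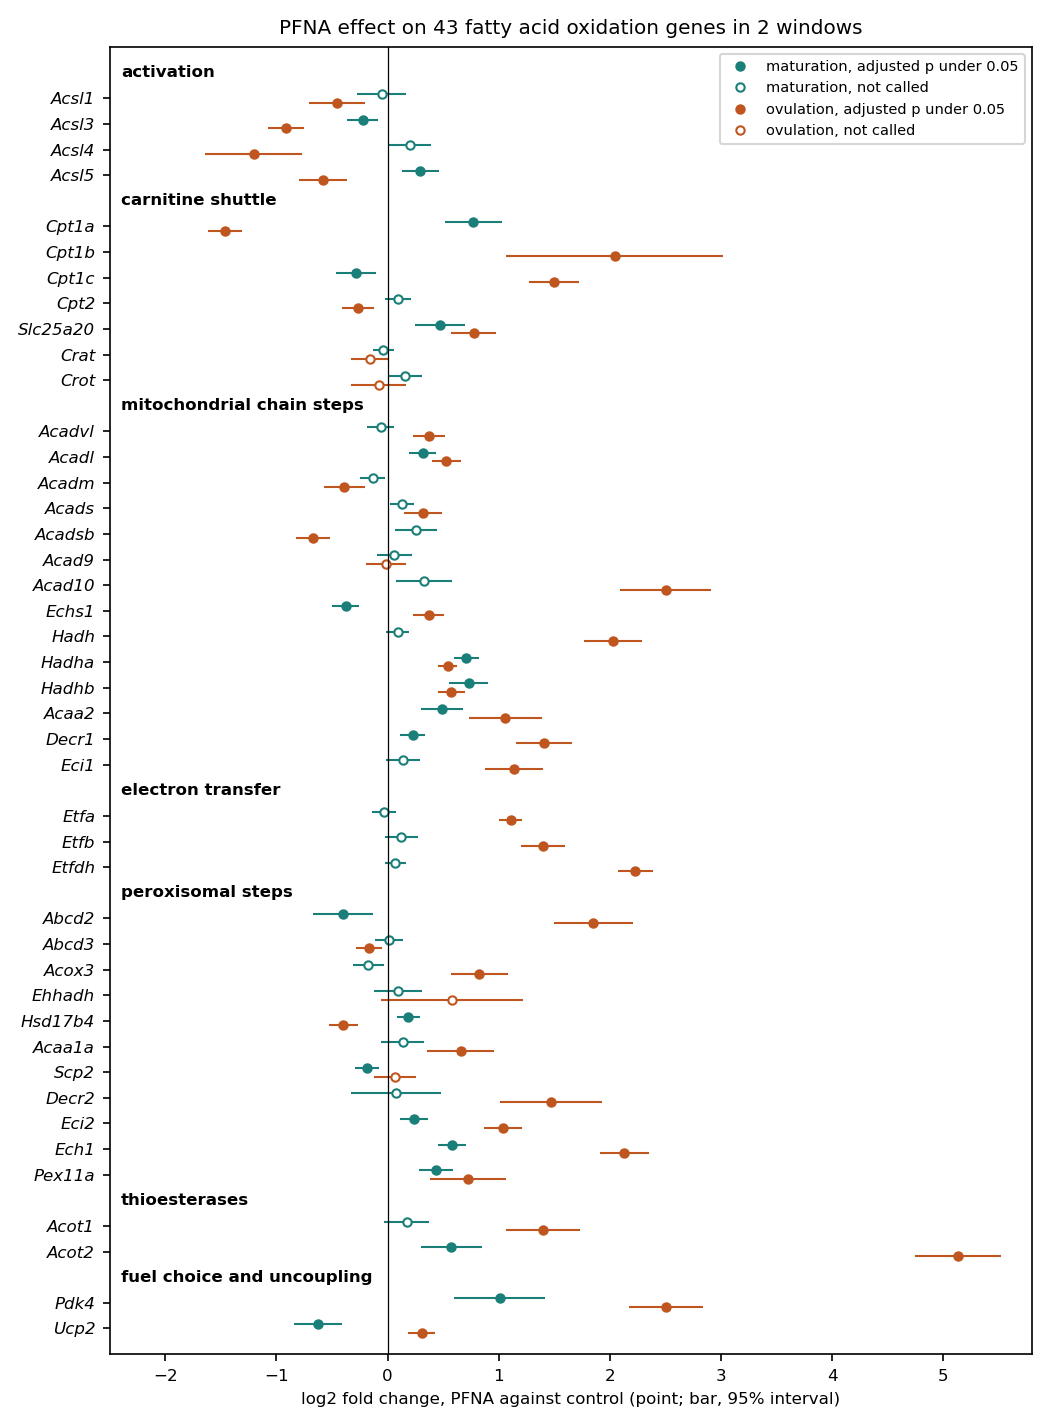
PFNA effect on each of the 43 genes, as the log2 fold change against the controls of the same window (horizontal axis), grouped by role, with bars of the 95% interval; filled points passed an adjusted p of 0.05. Ovulation points lie farther from 0 than maturation points for most genes, up to 5.13 for Acot2, and the 7 genes with filled points on opposite sides of 0 include Cpt1a, at 0.77 and -1.46.

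Activation of fatty acids is carried out by the long-chain acyl-CoA synthetases. In maturation, Acsl5 (chromosome 19, 55251938 to 55297720), found on mitochondria and endoplasmic reticulum, ran from 3.48 through a median of 4.81 to 6.36 TPM in controls and from 4.68 through 6.30 to 7.39 TPM with PFNA. The groups overlapped, with 4 of 10 PFNA libraries beyond the highest control (log2 fold change 0.29, SE 0.08, limma adjusted p = 0.012). Acsl3 (chromosome 1, 78657825 to 78707743), a synthetase of lipid droplets, was at 13.7, 17.4 and 19.9 TPM (lowest, median and highest) in controls and 12.2, 14.3 and 17.3 TPM with PFNA. It was lower by limma (-0.22, SE 0.07, adjusted p = 0.023), while Acsl1 and Acsl4 were not called (-0.05 and 0.20).

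In ovulation all 4 synthetases were called lower, where 35.2% of all genes were. Acsl3 fell from 95.8, 118 and 147 CPM to 49.0, 62.2 and 79.99 CPM, and all 11 PFNA libraries lay below every control (log2 fold change -0.91, SE 0.08, edgeR adjusted p = 4e-10). Acsl4 (chromosome X, 142317993 to 142390535), which favours arachidonic acid, fell from 1033, 1297 and 2441 CPM to 351, 526 and 1674 CPM (-1.21, SE 0.22, edgeR adjusted p = 3.9e-05). Of its PFNA libraries, 10 of 11 lay below every control, and replicate 6 alone, at 1674 CPM, lay inside the control range. Acsl5 ran from 31.4 through 45.0 to 65.3 CPM in controls and from 22.5 through 30.5 to 38.8 CPM with PFNA (-0.58, SE 0.11, edgeR adjusted p = 5e-05). Acsl1, the main synthetase of fat and heart, was lower as well (-0.45, edgeR adjusted p = 0.0027).

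The carnitine shuttle moves the activated acid across the mitochondrial membranes, and Cpt1a (chromosome 19, 3322334 to 3385733) holds its rate-limiting step. In maturation, Cpt1a was at 7.94, 14.3 and 16.5 TPM in controls and at 16.0, 24.1 and 39.9 TPM with PFNA. All but the lowest PFNA library, replicate 2, lay above every control (log2 fold change 0.77, SE 0.13, limma adjusted p = 0.00015). In ovulation it went the other way. Controls held 234, 274 and 351 CPM, and PFNA libraries held 83.0, 100.3 and 129 CPM, all 11 below every control (-1.46, SE 0.08, edgeR adjusted p = 2.1e-14).

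Cpt1c (chromosome 7, 44959372 to 44974851), the neuronal isoform with little oxidative activity, was called in the reverse directions. It was at 21.3, 24.7 and 31.9 TPM in maturation controls and 15.2, 21.5 and 29.0 TPM with PFNA, overlapping groups (-0.28, SE 0.09, limma adjusted p = 0.024). This call was lost with the replicate number as a block (-0.33, limma adjusted p = 0.059) and with the oocyte marker sum as a covariate (-0.22, limma adjusted p = 0.34). In ovulation it was at 6.50, 8.44 and 11.4 CPM in controls and 16.0, 25.4 and 31.6 CPM with PFNA, without overlap (1.50, SE 0.12, edgeR adjusted p = 1.6e-11). Cpt1b, the muscle isoform, was higher in ovulation (2.04, edgeR adjusted p = 0.00074) at 0 to 2.48 CPM in controls and 1.43 to 6.33 CPM with PFNA. For this gene 80.4% of the 50-base words of its transcripts are shared with the overlapping gene Gm44502, which leaves the assignment of reads uncertain.

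Slc25a20 (chromosome 9, 108662088 to 108684641), the translocase that exchanges acylcarnitine for carnitine, was higher in both windows. It rose from 5.34, 7.26 and 9.36 TPM to 7.60, 11.2 and 15.9 TPM in maturation (0.47, SE 0.11, limma adjusted p = 0.0036), with 6 of 10 libraries above every control. In ovulation it rose from 5.78, 7.56 and 8.85 CPM to 9.70, 13.8 and 15.8 CPM, with 11 of 11 above every control (0.77, SE 0.10, edgeR adjusted p = 2.4e-07). Cpt2, which returns the acyl group to coenzyme A on the matrix side, was not called in maturation and was lower in ovulation (-0.27, edgeR adjusted p = 0.0024). Crat and Crot, the acetyl and medium-chain carnitine transferases, were called in neither window, with log2 fold changes of -0.04 and 0.16 in maturation and -0.16 and -0.08 in ovulation.

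The mitochondrial chain holds 14 members. In maturation 5 were higher (35.7%, against 13.3% of all genes) and 1 lower (7.14%, against 16.1%). Hadha (chromosome 5, 30118304 to 30155162) and Hadhb (chromosome 5, 30155248 to 30184593) encode the α and β subunits of the trifunctional protein, which carries out the last 3 reactions on long chains. They are transcribed away from each other, and 85 bases separate their annotated starts. This stretch is shown because both genes moved together in both windows. It is given on the plus strand of GRCm38.p6 (chr5:30155163-30155247, RefSeq sequence), with its 9 CG pairs in capitals, and is 69.4% G and C.
Hadha-Hadhb: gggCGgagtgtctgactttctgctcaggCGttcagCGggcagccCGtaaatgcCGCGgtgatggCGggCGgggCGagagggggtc

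Hadha was at 52.3, 65.6 and 74.0 TPM in maturation controls and 87.9, 109 and 124 TPM with PFNA. Hadhb was at 23.1, 24.9 and 29.1 TPM and at 30.4, 42.3 and 55.9 TPM. For each of them all 10 PFNA libraries lay above every control, with log2 fold changes of 0.71 (SE 0.06, limma adjusted p = 1.1e-07) and 0.73 (SE 0.09, limma adjusted p = 7.8e-06). In ovulation Hadha ran from 181 through 203.5 to 226 CPM in controls and from 278 through 297 to 309.5 CPM with PFNA (0.54, SE 0.04, edgeR adjusted p = 5.1e-11). Hadhb was at 51.8, 66.5 and 72.5 CPM and at 85.9, 94.0 and 108 CPM (0.57, SE 0.06, edgeR adjusted p = 8.4e-09), and all 11 PFNA libraries of both genes lay above every control. Of the 50-base words of Hadhb, 57.5% are shared with the pseudogenes Gm13910 and Gm9108. Gm13910 held medians of 89.8 TPM in maturation controls and 145 TPM with PFNA, more than Hadhb itself, so reads of the subunit may be split between them. Hadha shares no such word with another gene.

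Echs1 (chromosome 7, 140105710 to 140116476), the hydratase of short chains, was the only chain member lower in maturation. Controls held 161, 174 and 195 TPM and PFNA libraries 108, 136 and 165 TPM, and 9 of 10 lay below every control (log2 fold change -0.38, SE 0.06, limma adjusted p = 0.00013). In ovulation Echs1 was higher, from 41.6, 59.9 and 70.7 CPM to 69.6, 73.4 and 88.9 CPM (0.37, SE 0.07, edgeR adjusted p = 5.5e-05). Acadl (chromosome 1, 66830839 to 66863277), the long-chain dehydrogenase, rose in maturation from 20.1, 21.2 and 25.8 TPM to 23.3, 26.4 and 34.0 TPM (0.32, SE 0.06, limma adjusted p = 0.00053). In ovulation Acadl was higher too (0.53, edgeR adjusted p = 1e-07). Acaa2, the matrix thiolase that ends each turn, and Decr1, the reductase needed for unsaturated chains, were the other 2 chain genes higher in maturation (0.49 and 0.23), and both were higher in ovulation.

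The 2 chain members with the largest ovulation changes, Acad10 and Hadh, were not called in maturation. Hadh (chromosome 3, 131233419 to 131272101), the dehydrogenase of the penultimate step for medium and short chains, rose from 8.27, 14.2 and 24.1 CPM to 51.3, 61.9 and 72.9 CPM (2.03, SE 0.13, edgeR adjusted p = 9e-13). In maturation it held 25.9 to 30.8 TPM in controls and 27.2 to 35.6 TPM with PFNA (0.09, limma adjusted p = 0.21). Acad10 (chromosome 5, 121621026 to 121660514), a dehydrogenase of less common acyl-CoA substrates, rose from 0.394, 1.22 and 2.54 CPM to 4.68, 7.72 and 10.6 CPM in ovulation (2.50, SE 0.21, edgeR adjusted p = 6.7e-11). This gene shares 20.2% of its 50-base words with its neighbour Acad12, which was also higher in ovulation (3.42, edgeR adjusted p = 6.6e-06). Acad12 was very low there, at 0 to 9 counts in controls and 2 to 31 counts with PFNA. Decr1 (chromosome 4, 15917240 to 15945507) rose from 5.40, 10.6 and 14.0 CPM to 22.4, 24.5 and 29.0 CPM (1.41, SE 0.13, edgeR adjusted p = 3.2e-10). For Hadh, Acad10 and Decr1 control and PFNA libraries did not overlap in ovulation.

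The dehydrogenases of the first step moved in both directions in ovulation. Acadvl and Acadl, for very long and long chains, were higher (0.37 and 0.53), as was Acads for short chains (0.32). Acadm, the medium-chain enzyme, was lower (-0.39, edgeR adjusted p = 0.00069), and Acadsb, which acts on short branched acids from isoleucine, was lower without overlap (-0.67, edgeR adjusted p = 2.6e-08). Eci1 and Acaa2 were higher (1.14 and 1.06). Acad9, better known for building respiratory complex I, was called in neither window (0.06 and -0.02). Differences between these genes were not tested.

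**Figure D2:**
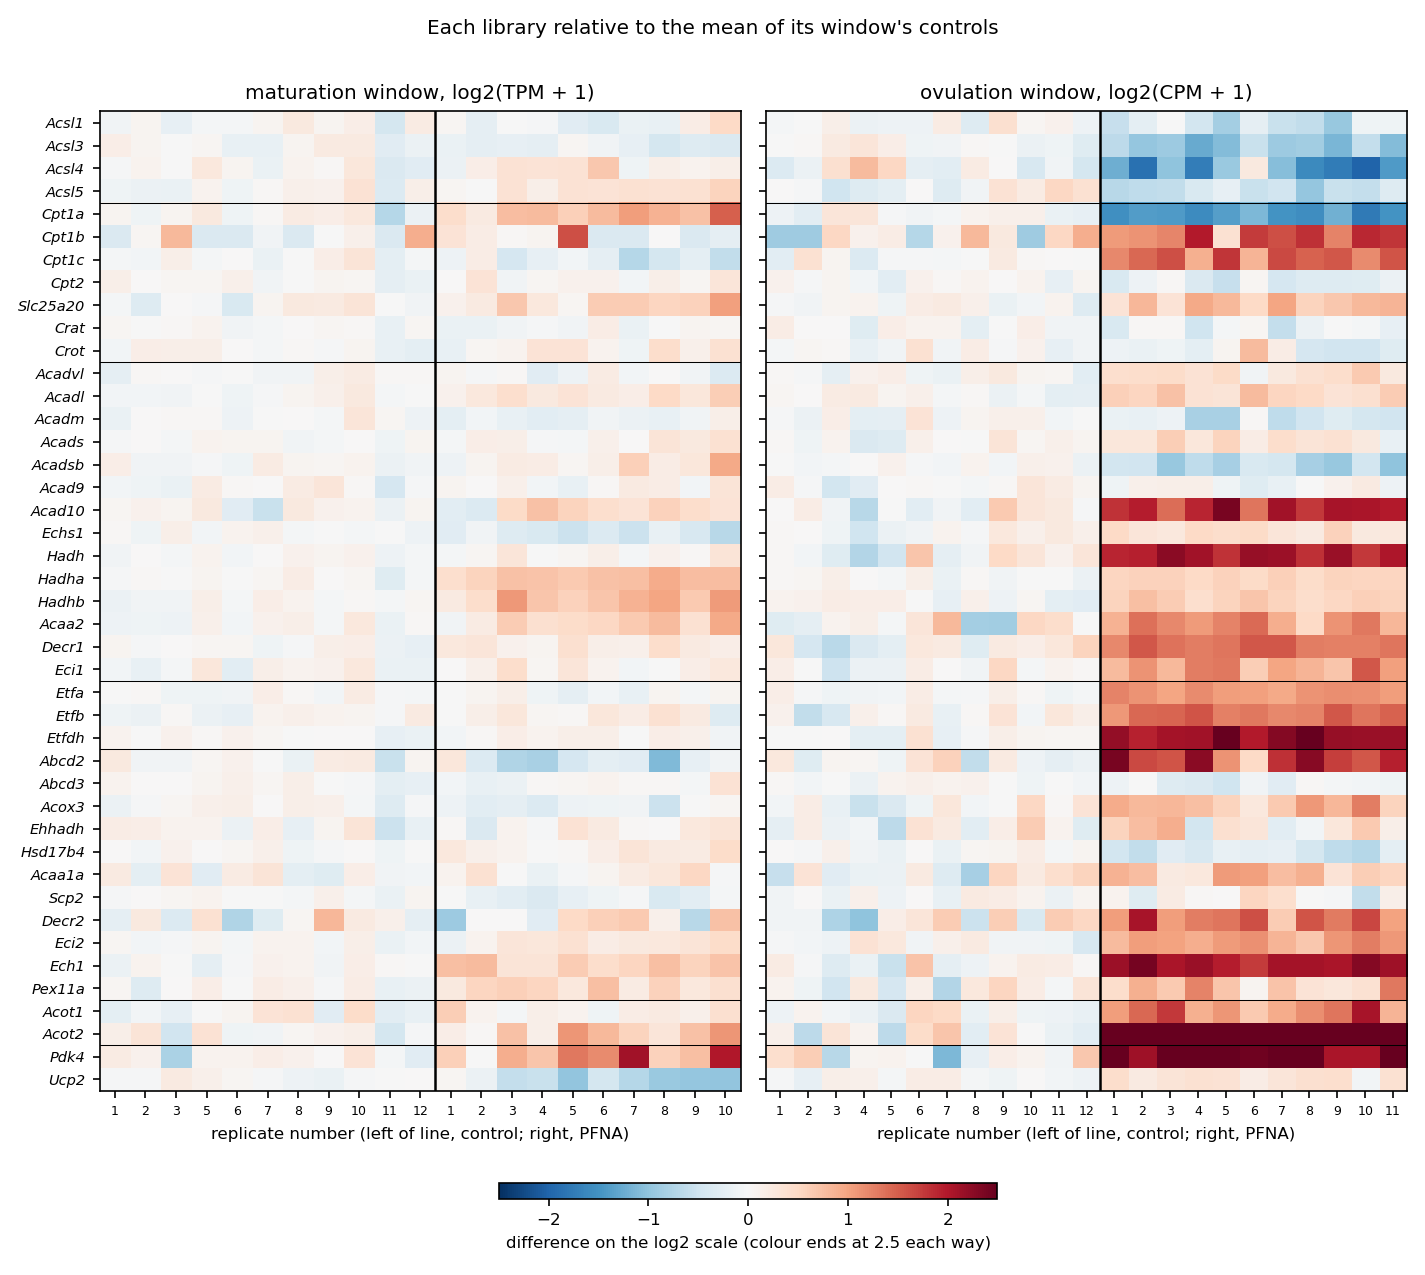
Log2 value of each library relative to the average control of its window, for the 43 genes in rows ordered by role, with controls left and PFNA libraries right of the black line in each panel (maturation left, ovulation right). In ovulation the columns of the 11 PFNA libraries are red for most genes and blue for Cpt1a and most values of the activation genes, with replicate 6 apart in Acsl4 and Abcd2 and in the median deviation of activation (-0.38, against -1.05 to -0.60 in the others). In maturation the shades are paler, with columns 1 and 2 of PFNA the palest for Cpt1a and Ucp2.

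Electron transfer takes electrons from every acyl-CoA dehydrogenase of the matrix through the flavoprotein subunits Etfa and Etfb to Etfdh, which passes them to ubiquinone. None of the 3 genes was called in maturation. Etfdh (chromosome 3, 79603788 to 79629500) was at 26.0, 30.7 and 32.8 TPM in controls and 28.3, 32.7 and 34.2 TPM with PFNA (0.07, 95% interval -0.03 to 0.17, limma adjusted p = 0.31). Etfb (chromosome 7, 43444083 to 43457800) was at 32.2, 38.2 and 43.6 TPM and at 29.5, 42.0 and 48.7 TPM (0.12, limma adjusted p = 0.23). In ovulation all 3 were called higher, where 38.0% of all genes were, and all 3 rose without overlap between groups. Etfdh went from 29.4, 35.1 and 46.0 CPM to 136, 159.7 and 212 CPM, a 4.69-fold rise (log2 fold change 2.23, SE 0.08, edgeR adjusted p = 2.1e-17). Etfa (chromosome 9, 55454508 to 55512243) went from 35.7, 37.3 and 43.6 CPM to 74.6, 84.5 and 91.8 CPM (1.11, SE 0.05, edgeR adjusted p = 1.3e-15). Etfb rose by 1.40 on the log2 scale (SE 0.10, edgeR adjusted p = 3.8e-12), although 57.7% of its 50-base words are shared with the overlapping gene Gm45233. Etfdh shares no such word, but 278 bases of its exons lie opposite those of 4930579G24Rik. Such overlaps with a gene on the other strand touch 13 members, the longest being those of Acadvl with Dvl2 (1151 bases) and Acsl1 with Gm45244 (1039 bases), and include Acsl5, Cpt1c, Echs1, Hadha and Ucp2. The use of strand in counting is not given in the sources used here, so reads of such partners cannot be told apart.

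**Figure D3:**
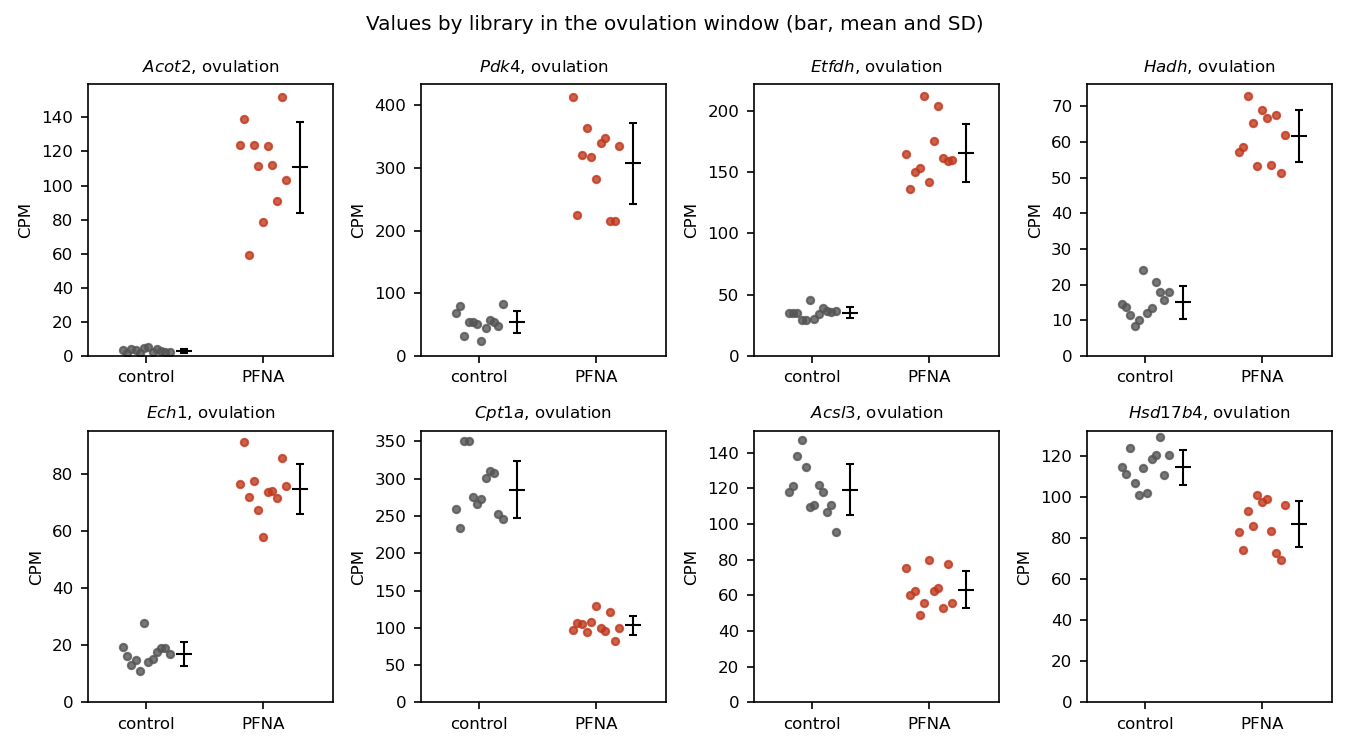
CPM of 8 members in each of the 12 control and 11 PFNA libraries of the ovulation window (points; the bar beside them is the mean and SD). In the upper row and for Ech1 every PFNA point lies above every control point, and for Cpt1a, Acsl3 and Hsd17b4 every PFNA point lies below.

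Of the 11 peroxisomal members, 4 were higher (36.4%, against 13.3% of all genes) and 2 lower (18.2%, against 16.1%) in maturation. In ovulation 7 were higher (63.6%, against 38.0%) and 2 lower (18.2%, against 35.2%). Ech1 (chromosome 7, 28825217 to 28832247), a dienoyl-CoA isomerase for unsaturated chains, was higher in both windows. It rose from 107, 124 and 140.4 TPM to 156, 188 and 218 TPM in maturation (0.58, SE 0.07, limma adjusted p = 5e-06). In ovulation it rose from 10.9, 16.7 and 27.8 CPM to 57.8, 73.9 and 91.0 CPM (2.13, SE 0.11, edgeR adjusted p = 1.4e-14), and in each window every PFNA library lay above every control. Eci2 (chromosome 13, 34977748 to 35027096), the enoyl-CoA isomerase, rose from 10.2, 11.2 and 12.9 TPM to 10.3, 14.1 and 16.0 TPM (0.24, SE 0.06, limma adjusted p = 0.0072). In ovulation Eci2 rose from 12.2, 15.4 and 21.1 CPM to 26.7, 34.6 and 41.0 CPM, without overlap (1.04, SE 0.09, edgeR adjusted p = 9.3e-11). Pex11a (chromosome 7, 79735957 to 79743131), which takes part in peroxisome division, rose from 10.4, 13.3 and 15.3 TPM to 15.5, 18.7 and 22.9 TPM in maturation, also without overlap (0.44, SE 0.08, limma adjusted p = 0.00024). In ovulation Pex11a was higher with overlap (0.72, edgeR adjusted p = 0.00064).

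The genes that bring acids into the peroxisome and start oxidation there behaved unevenly. Abcd2 (chromosome 15, 91145871 to 91191799), an importer of very long acyl-CoA, was at 3.44, 5.78 and 6.69 TPM in maturation controls and 2.04, 4.24 and 6.96 TPM with PFNA. It was lower by limma (-0.40, SE 0.14, adjusted p = 0.033), but 7 of 21 fits with a library left out did not call it, namely those without control replicate 1, 6, 9 or 10 or PFNA replicate 3, 4 or 8 (log2 fold changes of -0.48 to -0.32 over the 21 fits). In ovulation Abcd2 rose from 6.32, 10.02 and 15.8 CPM to 14.9, 36.4 and 56.7 CPM (1.85, SE 0.18, edgeR adjusted p = 1.3e-09). Replicate 6 was the lowest PFNA library and the only one inside the control range. Abcd3, an importer of long and branched acids, was not called in maturation (0.01) and was lower in ovulation (-0.17, edgeR adjusted p = 0.014). Acox3 (chromosome 5, 35583040 to 35615352), the oxidase of branched acids, was not called in maturation (-0.18) and rose in ovulation from 6.30, 9.49 and 14.5 CPM to 11.9, 17.8 and 25.0 CPM (0.83, SE 0.13, edgeR adjusted p = 3.5e-06). Its exons share 700 bases with an antisense transcript.

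The 2 bifunctional enzymes carry the middle steps. Hsd17b4, the form that handles very long and branched acids, was at 12.3, 13.4 and 14.7 TPM in maturation controls and 13.4, 15.3 and 18.7 TPM with PFNA (0.19, SE 0.05, limma adjusted p = 0.013). In ovulation it fell from 101, 114 and 129 CPM to 69.2, 85.7 and 101 CPM, all 11 PFNA libraries below every control (-0.40, SE 0.07, edgeR adjusted p = 7.4e-06). Ehhadh, the form acting on straight chains, was low throughout (at most 2.56 CPM or 2.17 TPM in any library) and was called in neither window (0.09 and 0.58). Its ovulation interval, from -0.05 to 1.22, leaves room for a change of the size seen in other members. The thiolases differed from each other. Acaa1a was called only in ovulation (0.66, edgeR adjusted p = 0.00047) and shares 26.7% of its words with Acaa1b. Scp2, a thiolase and lipid carrier, was lower in maturation (-0.19, limma adjusted p = 0.013) and not called in ovulation (0.07). It shares 37.5% of its words with Scp2-ps2, which leaves the assignment of its reads uncertain. Decr2, the peroxisomal dienoyl reductase, was higher in ovulation (1.47, edgeR adjusted p = 4.2e-06) and not called in maturation (0.07).

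The thioesterases release free acids from coenzyme A. Acot2 (chromosome 12, 83987861 to 83993873), the mitochondrial form, showed the largest change of all members. In ovulation it stood at 1.51, 3.09 and 5.42 CPM in controls and 59.0, 112 and 152 CPM with PFNA, a 35.1-fold rise (log2 fold change 5.13, SE 0.20, edgeR adjusted p = 1e-16). The lowest PFNA library held 1074 counts of this gene and the highest control 82. In maturation Acot2 rose from 11.6, 17.0 and 21.5 TPM to 16.9, 26.3 and 36.7 TPM, with 6 of 10 libraries above every control (0.57, SE 0.14, limma adjusted p = 0.0041). Acot1 (chromosome 12, 84009490 to 84018371), the cytosolic form next to it, was at 10.8, 12.7 and 18.6 TPM in maturation controls and 12.3, 14.7 and 20.8 TPM with PFNA (0.17, SE 0.10, limma adjusted p = 0.23). In ovulation Acot1 rose from 3.50, 4.33 and 7.43 CPM to 8.05, 11.4 and 23.2 CPM without overlap (1.40, SE 0.17, edgeR adjusted p = 6.3e-08). These genes are near copies: 27.7% of the words of Acot2 and 32.7% of those of Acot1 are shared with each other or with Acot3, Acot4 and Acot5, so reads may be split among them. Acot3 was higher in ovulation as well (2.55, edgeR adjusted p = 1.1e-07), and Acot4 was not called (0.44).

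Of the genes of fuel choice and uncoupling, Pdk4 (chromosome 6, 5483351 to 5496309) encodes the kinase that switches off pyruvate dehydrogenase when fat is burned. It rose in maturation from 4.94, 10.1 and 12.1 TPM to 9.32, 17.3 and 43.2 TPM, and all PFNA libraries but replicate 2 lay above every control (1.01, SE 0.21, limma adjusted p = 0.0011). Replicates 7 and 10 stood highest, at 43.2 and 40.7 TPM. In ovulation Pdk4 rose from 23.2, 54.3 and 82.6 CPM to 215, 321 and 414 CPM without overlap (2.50, SE 0.17, edgeR adjusted p = 2.9e-12). Ucp2 (chromosome 7, 100493337 to 100502020), a carrier of the inner membrane, fell in maturation from 448, 492 and 585 TPM to 253, 317 and 518 TPM (-0.63, SE 0.11, limma adjusted p = 0.00024). The 2 PFNA libraries inside the control range were replicates 1 and 2. In ovulation Ucp2 rose from 362, 408 and 477 CPM to 397, 538 and 566 CPM (0.31, SE 0.06, edgeR adjusted p = 0.0001), with 9 of 11 libraries above every control.

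The effect of PFNA was then compared between windows, as the log2 effect in ovulation minus that in maturation, each from its own table (limma, Satterthwaite's degrees of freedom, adjusted p under 0.05 over 11215 genes). For this comparison the ovulation effect was fitted anew with limma on log2(CPM + 1). The differences therefore do not follow from the edgeR effects given above. The added 1 shrinks effects of low genes, on the CPM scale in ovulation and the TPM scale in maturation. The effect was higher in ovulation for 22 of 42 members and lower for 10, where 32.0% and 35.6% of all genes differed in these directions. Of the 42 members tested in both windows 19 were called in both, of which 11 were higher in both, Acsl3 was lower in both and 7 changed in opposite directions. Of the 11215 genes tested in both windows, 24.8% were called in both, 6.06% were higher in both, 6.01% lower in both and 12.8% called in opposite directions. The 11 members were Acaa2, Acadl, Acot2, Decr1, Ech1, Eci2, Hadha, Hadhb, Pdk4, Pex11a and Slc25a20. A further 18 were called in ovulation alone, Scp2 in maturation alone, and Acad9, Crat, Crot and Ehhadh in neither. All 4 synthetases of activation had a lower effect in ovulation, and all 3 electron transfer genes had a higher effect. For Acsl1 (-0.37, limma adjusted p = 0.038) the difference was not called with a pseudocount of 0.1 (adjusted p = 0.13) or without maturation PFNA replicates 1 and 2 and ovulation PFNA replicate 5 (adjusted p = 0.069).

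The 7 genes of opposite direction were Acsl5, Cpt1a and Hsd17b4, which rose in maturation and fell in ovulation, and Cpt1c, Echs1, Abcd2 and Ucp2, which fell in maturation and rose in ovulation. Among these 7 the effect difference was largest for Cpt1a (-2.22, SE 0.15, limma adjusted p = 8e-15), Abcd2 (2.11, SE 0.22, limma adjusted p = 2.9e-11) and Cpt1c (1.67, SE 0.14, limma adjusted p = 7.5e-14). For Hadhb, Slc25a20 and Pex11a, higher in both windows, no difference between windows was called (-0.16, 0.22 and 0.20, limma adjusted p of 0.2, 0.18 and 0.31). In the fit with the oocyte marker sum as a covariate, Cpt1a (0.79), Hadha (0.62), Hadhb (0.65), Ech1 (0.72), Pex11a (0.44), Acadl (0.36), Hsd17b4 (0.28) and Echs1 (-0.37) stayed called in maturation with the same sign. The maturation calls of 4 of the 7 opposite genes were lost in that fit, namely Acsl5 (0.24, limma adjusted p = 0.25), Cpt1c (-0.22, adjusted p = 0.34), Abcd2 (-0.10, adjusted p = 0.76) and Ucp2 (-0.40, adjusted p = 0.11). The windows were deposited as separate tables, so anything that differed between the experiments cannot be told apart from the window.

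**Figure D4:**
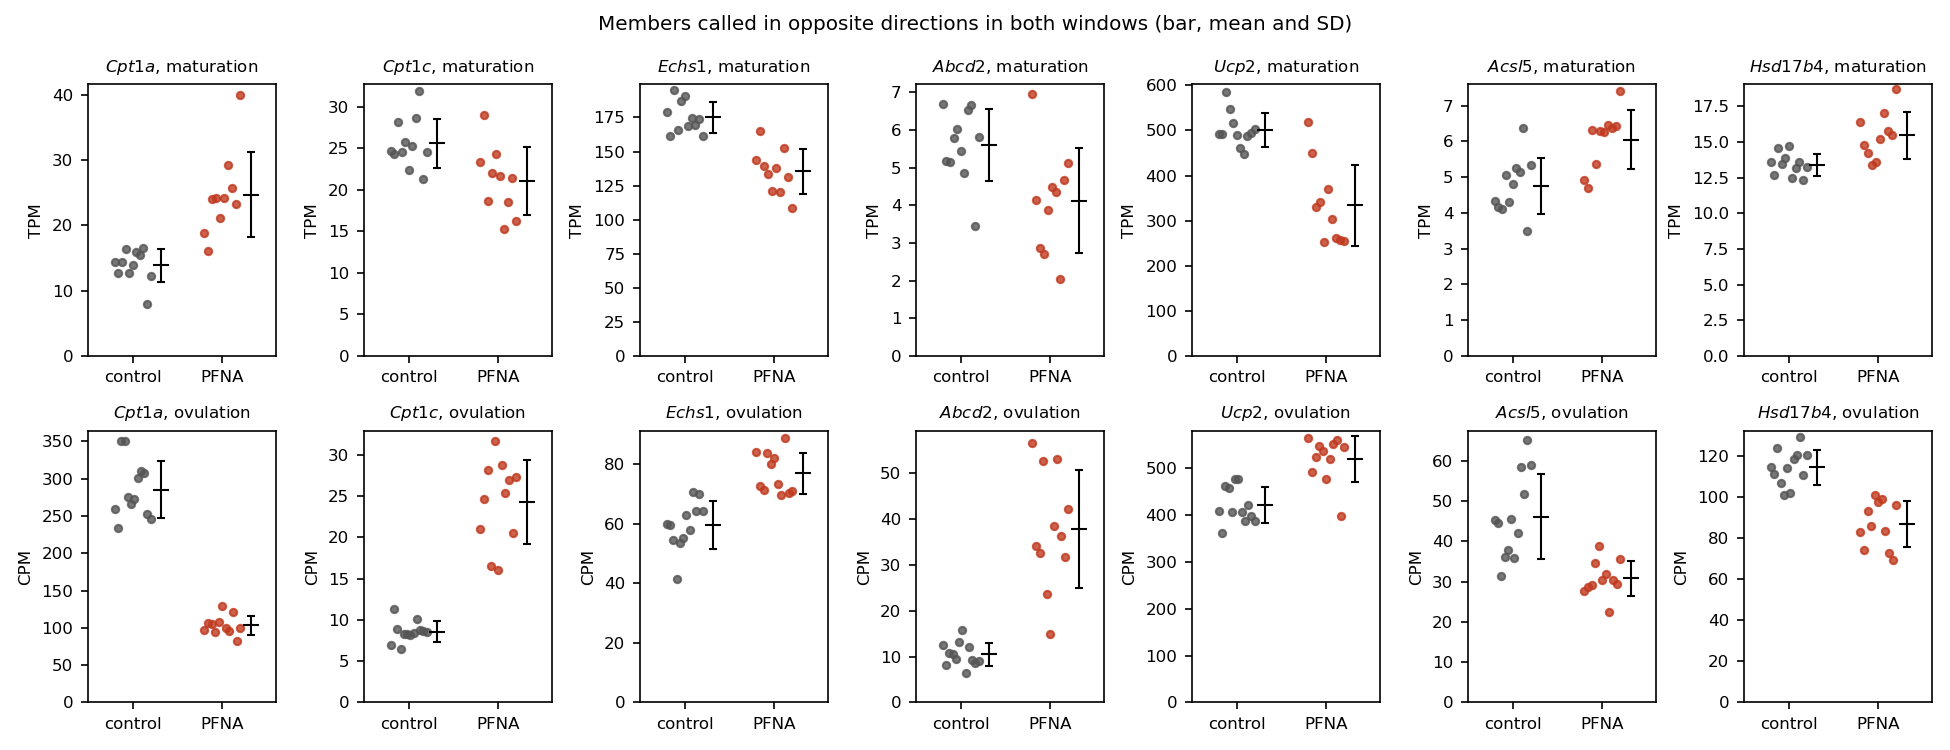
Values of the 7 members called in opposite directions, in TPM for maturation (upper row, 11 control and 10 PFNA libraries) and CPM for ovulation (lower row, 12 and 11), with mean and SD beside the points. Cpt1a lies higher with PFNA above and lower with PFNA below, and Cpt1c, Echs1, Abcd2 and Ucp2 do the reverse; scales of the rows cannot be compared.

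Genes of the pathway outside the 43 were examined in 2 lists. Of 24 other oxidation genes, 5 were lower among 19 tested in maturation (26.3%, against 16.1% of all genes; median -0.02). In ovulation 16 were higher (76.2%, against 38.0%) and 1 lower (4.76%, against 35.2%) among 21 tested (median 1.01). Acacb, which makes the malonyl-CoA that inhibits carnitine palmitoyltransferase at the outer membrane, fell in maturation from 3.29, 7.93 and 9.06 TPM to 1.31, 2.44 and 7.54 TPM (-1.21, SE 0.19, limma adjusted p = 8.7e-05). In ovulation Acacb rose from 2.26, 4.86 and 12.5 CPM to 10.8, 22.0 and 30.9 CPM, with 10 of 11 libraries above every control (1.91, SE 0.26, edgeR adjusted p = 3.2e-07), and its effect differed between windows by 3.05 (limma adjusted p = 2e-12). Phyh, the hydroxylase of α-oxidation, fell in maturation (-0.52, limma adjusted p = 0.0035) and rose in ovulation from 10.9, 12.2 and 14.8 CPM to 30.1, 37.6 and 61.3 CPM (1.62, SE 0.10, edgeR adjusted p = 3.4e-13). Acat1, the mitochondrial thiolase of ketone bodies, rose in ovulation (1.42, edgeR adjusted p = 6.9e-13), and the peroxisomal thioesterase Acot8 was the only gene of this list that fell there (-0.49, edgeR adjusted p = 0.034).

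Of 15 genes of peroxisome biogenesis, 2 were higher (13.3%, as of all genes) and 1 lower (6.67%, against 16.1%) in maturation. In ovulation 6 were higher (40.0%, against 38.0%) and 3 lower, where 35.2% of all genes were lower, so the shares called higher were near those of all genes in both windows. Pex5, the import receptor for most matrix enzymes, showed the largest change. It fell in ovulation from 133, 186 and 259 CPM to 45.6, 58.1 and 66.1 CPM (-1.74, SE 0.09, edgeR adjusted p = 1.3e-14), and was higher in maturation (0.27, limma adjusted p = 0.021). Pex7, the receptor for the other import signal, rose in ovulation (1.06, edgeR adjusted p = 1.2e-10), as did Pex3, which places membrane proteins (0.87, edgeR adjusted p = 2e-08). Pex16 was lower in both windows (-0.22, limma adjusted p = 0.037, and -0.77, edgeR adjusted p = 0.00011). Pex26, which anchors the export complex, was higher in maturation (0.43, limma adjusted p = 0.0072) and not called in ovulation (-0.28).

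Promoters of 36 members, from 250 bases before to 50 bases after the annotated start (RefSeq, GRCm38.p6), were searched on both strands for the repeat bound by PPAR with RXR. The repeat was taken as 2 copies of AGGTCA in the same direction, 1 base apart, with at most 2 mismatches in all. Cpt1b, Crat, Acad9, Acaa2, Decr1, Hsd17b4 and Abcd2 had no entry. A match was found for 3 of the 36 members (8.33%), against 3.86% of 32851 promoters. The first share counts genes, with 38 promoters among them, and the second counts promoters, so their bases differ. The matches are shown in capitals within their surroundings, each on the strand of the gene, because they sit in genes with different responses: Slc25a20 rose in both windows, Etfa was called in ovulation alone, and Echs1 was called in opposite directions. Positions count from the RefSeq start as 0. For Echs1 and Slc25a20 this start differs from the gene positions given above. The Echs1 match lies at -83 to -71 (chr7:140116472-140116524, minus strand), the Etfa match at -77 to -65 with the repeat on the opposite strand (chr9:55512288-55512340, minus strand), and the Slc25a20 match at 6 to 18 (chr9:108662134-108662162, plus strand).
Echs1: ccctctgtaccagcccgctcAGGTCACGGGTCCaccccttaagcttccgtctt
Etfa: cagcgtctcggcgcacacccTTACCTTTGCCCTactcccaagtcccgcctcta
Slc25a20: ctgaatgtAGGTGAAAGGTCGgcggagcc

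With at most 1 mismatch no member promoter held the repeat, against 0.554% of all promoters. The motif TCAAGGTCA, bound by estrogen-related receptors, was found in none of the 36, against 0.423%. A match describes only these letters, and the members with the largest changes, Acot2, Pdk4, Acad10, Etfdh and Ech1, held neither motif in this window.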

How the data were processed

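The authors deposited a table per window. Although its name says raw counts, the deposited maturation table holds TPM: each library sums to 1000000 and 80.2% of the values are not whole (tolerance 0.01). The deposited ovulation values are estimated counts (9.82% not whole), rounded before testing. Per the submitters' processing notes, Partek, Bowtie2 and HISAT2 were used; their roles, the build, the annotation, the counting and the use of strand are not given in the sources used here. All 43 positions in the maturation table equal those of GENCODE M21 on GRCm38. Columns were joined to samples by title; a column that differed by a letter was taken as maturation control replicate 6, and control replicate 4 was not analysed here.

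Maturation was tested with limma 3.58.1 (R 4.3.3) on log2(TPM + 1), trend and robust, over genes averaging 1 TPM or more, a scale that understates changes of low genes. Ovulation was tested with edgeR 4.0.16 (quasi-likelihood, filterByExpr, TMM, robust). P-values were adjusted by Benjamini-Hochberg over all genes tested. The tests were checked on simulated data in which few genes changed. Far more genes were called in these data, so that check does not cover them. Alternatives included DESeq2 1.42.0 and leaving out each library. The members and lists were chosen with earlier results of these data known, and promoters and words of 50 bases came from RefSeq and GENCODE transcripts. Values were given in full for the members with the smallest p of each role (4 for lists of over 8 genes, otherwise 2) and for the 7 of opposite direction, and for other lists for up to 2 genes in each direction. Some genes of the list of other oxidation genes are not reported here, and its counts leave them out.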

Additional observations from a re-analysis of the deposited data

Results flagged for a closer look

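In the maturation PFNA group of 10 libraries, 42 members were examined with Dixon's gap test for a library apart from the others, which flags about 1 in 20 groups by chance. There were 2 such members, about as many as that rate gives, and both gaps belong to replicate 10. Acadm was at 36.86 TPM there against 31.88 TPM in the next library, and Abcd3 was at 14.07 TPM against 11.49 TPM. Groups of more than 10 libraries were not searched.

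For 32 members the PFNA effect differed between windows (difference of limma fits, adjusted p under 0.05). The values that follow are the log2 effect in ovulation minus that in maturation, both from limma and not from edgeR. In activation they were -0.37 for Acsl1, -0.69 for Acsl3, -1.50 for Acsl4 and -0.84 for Acsl5. In the carnitine shuttle they were -2.22 for Cpt1a, 1.67 for Cpt1c and -0.36 for Cpt2. In the mitochondrial chain the effect was higher in ovulation for Acadvl (0.43), Acadl (0.21), Acad10 (1.55), Echs1 (0.75), Hadh (1.92), Acaa2 (0.59), Decr1 (1.14) and Eci1 (0.87). It was lower for Acadm (-0.26), Acadsb (-0.93) and Hadha (-0.17). The electron transfer genes differed by 1.12 (Etfa), 1.24 (Etfb) and 2.13 (Etfdh). Among peroxisomal genes the differences were 2.11 for Abcd2, 0.95 for Acox3, -0.59 for Hsd17b4, 0.54 for Acaa1a, 1.25 for Decr2, 0.76 for Eci2 and 1.52 for Ech1. Acot1 and Acot2 differed by 1.03 and 4.20, and Pdk4 and Ucp2 by 1.51 and 0.93.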

How the results depend on the processing

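In ovulation no called member lost its call under any alternative, including DESeq2, and each fit without a library gave 28 to 29 members higher, 10 to 11 lower and 9654 to 10029 genes called. In maturation these fits gave 14 to 19 higher, 5 to 8 lower and 3586 to 4588 genes. Of the settings, the oocyte marker sum as a covariate in maturation moved most: 723 genes were called (4030 without it), 7 members higher and 1 lower. It ended 12 member calls (Abcd2, Acaa2, Acot2, Acsl3, Acsl5, Cpt1c, Decr1, Eci2, Pdk4, Scp2, Slc25a20 and Ucp2). The log2 fold change of 9 of these was not smaller by over 1.5 times in that fit (Pdk4 0.93, from 1.01; Slc25a20 0.50, from 0.47), and that of Abcd2 (-0.10, from -0.40), Scp2 (-0.09, from -0.19) and Ucp2 (-0.40, from -0.63) was. It turned the sign of 5 uncalled members, Acsl1 (0.14), Acad10 (-0.0053), Etfa (0.057), Etfb (-0.058) and Etfdh (-0.036). The cause was not tested. Other turns of sign were all near 0 and uncalled: Abcd3 in maturation with median-ratio size factors (-0.015) and without single libraries (-0.025 to 0.036), Decr2 without single libraries (-0.0006 to 0.18), and Acad9 in ovulation with DESeq2 (0.0095), with RLE size factors (0.0093) and without single libraries (-0.053 to 0.017). The difference between windows was no longer called for Acadm and Hadha with median-ratio size factors, for Acsl1 with a pseudocount of 0.1, and for Acadl, Acadm and Acsl1 without maturation PFNA replicates 1 and 2 and ovulation PFNA replicate 5. The depth behind the TPM values is unknown, so no limit of detection can be given for maturation.

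Libraries of the same replicate number showed little shared deviation from their group means. The correlation was -0.138 to 0.168 over 9 maturation pairs and -0.193 to 0.073 over 11 ovulation pairs. In maturation 1 control, and in ovulation 0, correlated best with its own number. The labels do not say whether such libraries share an animal or a culture, and these correlations cannot settle it. With the replicate number as a block, 2891 genes were called in maturation (Cpt1c and Scp2 lost their calls, and uncalled Abcd3 was at -0.038) and 9298 in ovulation.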
